A study of Homo sapiens with 2 samples.

Results

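The 46 genes described here encode the subunits of the human proteasome, its activators, its inhibitor PI31 and the chaperones that assemble it. They were chosen by name, as the PSMA, PSMB, PSMC, PSMD, PSME, PSMF and PSMG genes. The rule used no measured value, although earlier results of these data were known. All 46 were measured, out of 23753 genes or transcripts without a name that gave a signal clearly above background. HepG2 is an established human liver cancer cell line that retains many hepatocyte functions. Both groups were HepG2 cells, and the labels name no transgene or deletion in either. The control cells received dimethyl sulfoxide (DMSO) at 1 per mille for 24 h. The treated cells received hawk tea extract (HTE), from the leaves or buds of Litsea coreana, for 24 h. The sample labels give the dose as 200 μg/mL and the study's text gives 300 μg/mL. RNA of each group was hybridised to 1 single-colour Agilent array, so the ratios below have no replicate check and no p value, and the treatment and the array cannot be told apart.

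The proteasome is the protease that degrades most proteins marked with ubiquitin. Its barrel-shaped 20S core has outer alpha rings, which gate the entrance, and inner beta rings, which hold the active sites. The 19S cap binds ubiquitin chains, removes them and unfolds the substrate with a ring of ATPases. In cells exposed to interferon the catalytic beta subunits are replaced by immunoproteasome subunits, which change the peptides that are cut for presentation on MHC class I. In liver, as elsewhere, cells with too little proteasome activity raise most subunit genes together through the transcription factor NFE2L1.

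Signals are given as scaled signals, in multiples of the 75th percentile of each array, and ratios as log2 of the HTE over the DMSO signal of a gene's brightest probe. A scaled signal depends on the probe and was not compared between genes. The array error came from repeats on the array itself. Replicate spots of 1 probe had a median SD of 0.05 in the log2 ratio over 689 probes, and different probes of 1 gene had a median SD of 0.16 over 3759 genes. Among probes at least as bright as the dimmest member that SD was 0.09 over 815 genes. The share of non-control spots well above background was 60.6% for DMSO and 56.6% for HTE. The 8 hepatocyte markers were all detected, with a summed scaled signal of 173.0 on the DMSO array and 186.2 on the HTE array. Of 10 markers of blood, endothelial and fibroblast cells, neither array detected CD3E or CDH5 above background, and the 8 others summed to 2.72 and 2.36. Of these 8, 4 were at least 1.5-fold lower after HTE, the endothelial PECAM1 (log2 ratio -1.82) and VWF (-0.63), the monocyte gene CD14 (-1.77) and the fibroblast gene COL1A1 (-0.63), all at scaled signals under 1, and their part in the results below was not tested. In these bulk samples fewer cells of a type and less RNA per cell cannot be told apart.

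The proteasome genes differed little between the arrays. Their log2 ratios ran from -0.61 to 0.65 with a median of 0.03, and the middle of the distribution, from the 25th to the 75th percentile, ran from -0.11 to 0.10. Over all genes that middle range was -0.28 to 0.27. The SD over the members was 0.23, against 0.59 over all genes and 0.39 over the 7148 genes at least as bright as the dimmest member. It was 0.20 over the 1017 genes at least as bright as the dimmest standard core subunit, a set that leaves out genes as dim as many members. The 14 standard core genes themselves had an SD of 0.089.

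Among the 46, only PSMF1 was at least 1.5-fold higher after HTE and only PSMD5 at least 1.5-fold lower, where 12.4% of all genes were at least 1.5-fold higher and 10.5% at least 1.5-fold lower. Among the 7148 genes at least as bright as the dimmest member these shares were 5.46% and 5.74%. That set also holds many genes dimmer than most members, and dimmer genes varied more. From the 5th to the 95th percentile, ratios ran from -0.74 to 0.72 at log2 levels 1 to 2. At levels 4 to 5 they ran from -0.22 to 0.36. No member passed the 2-fold cutoff of the study's methods in either direction, which 5.25% of all genes passed upward and 3.03% downward. Among the 7148 genes these shares were 1.41% and 1.26%. The ratio exceeded the spread between probes of a gene, 0.16, in 16 members (34.8%) and in 66.3% of all genes. It did so in 57.6% of the 7148 genes and in 40.5% of the genes at least as bright as the dimmest standard core subunit. Against the spread of bright probes, 0.09, these shares were 56.5% (26 members), 78.1%, 74.9% and 63.9%.

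Of the members, 31 (67.4%) had a ratio above 0, against 45.7% of all genes and 47.8% of the genes at least as bright as the dimmest member. Bright probes as a class lay higher on the HTE array. Of the 1017 genes at least as bright as the dimmest standard core subunit, 68.9% had a ratio above 0 and the median was 0.08. Set against genes of the same level, in steps of 1 log2 unit, 30 of the 46 members lay between the 25th and 75th percentiles, all 46 between the 5th and 95th, and 25 above the median. The sign of the small ratios depended on the scaling of the arrays. With each array scaled to its median 14 members lay above 0, and without scaling 7 did, as the median of all genes moved by -0.07 and -0.16 and the members moved with it. Scaled to the spike-in probes, which were brighter on the HTE array, all genes moved by -1.07 and no member lay above 0. Differences between members on the same arrays do not depend on such a factor.

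**Figure D1:**
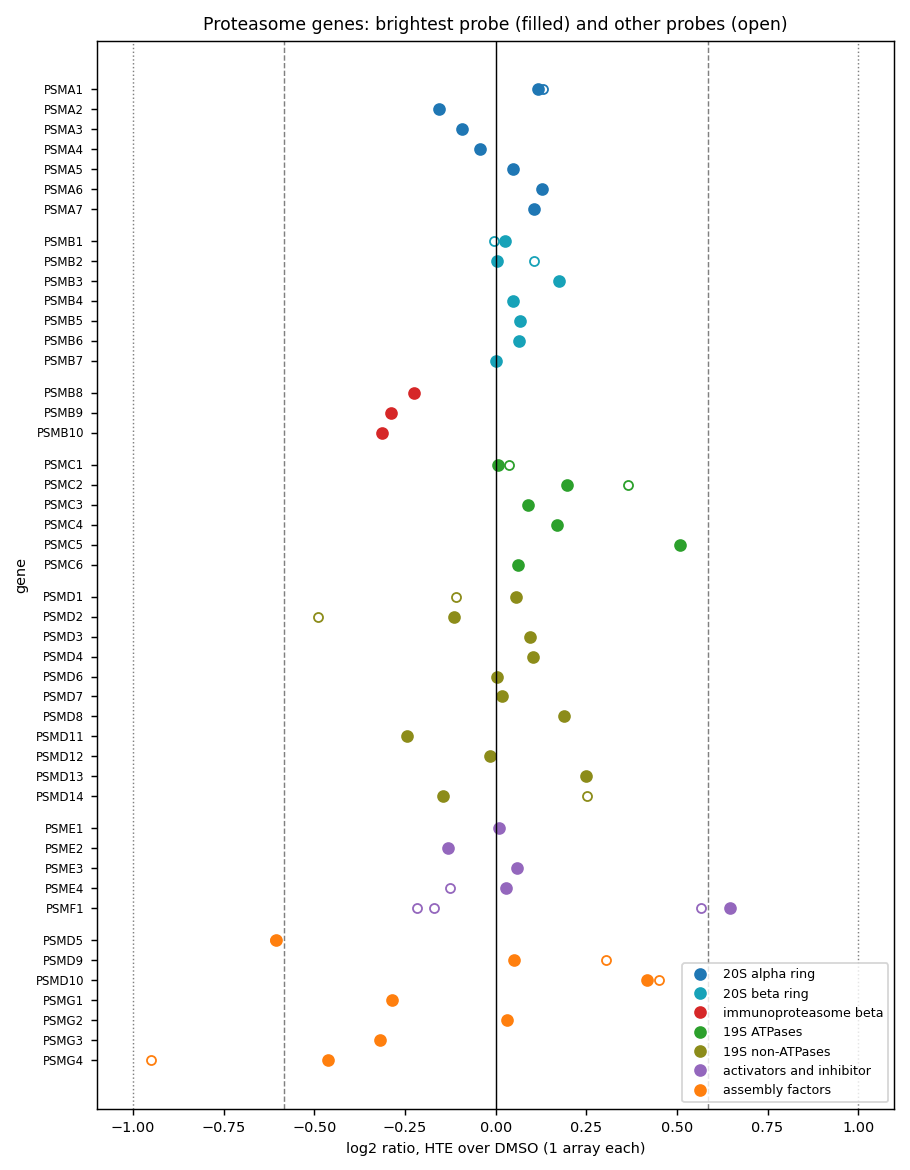
Log2 ratio of HTE over DMSO (x axis) for each of the 46 proteasome genes (y axis), grouped by role, with filled points for the brightest probe and open points for other probes of the gene; no error bars are drawn because there was 1 array per group, and dashed and dotted lines mark 1.5-fold and 2-fold. The 3 immunoproteasome genes all lie between -0.31 and -0.23, while the 14 standard core genes lie between -0.16 and 0.17.

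**Figure D2:**
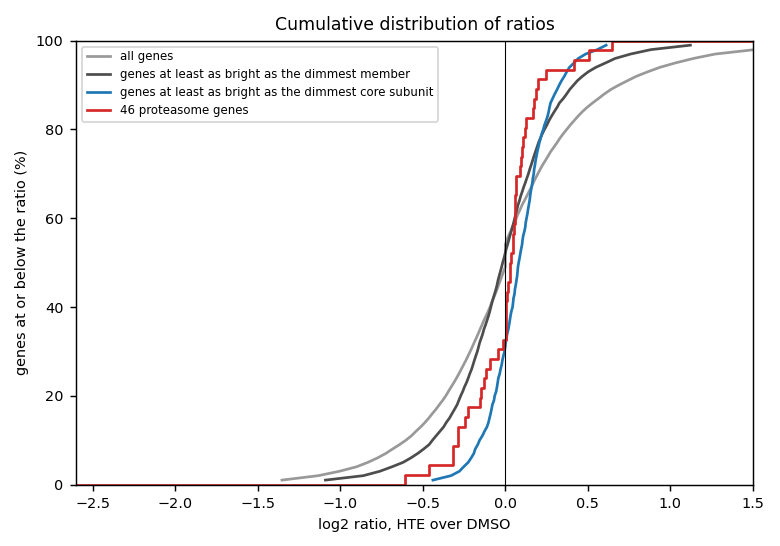
Cumulative share of genes in percent (y axis) by log2 ratio of HTE over DMSO (x axis), for the 46 proteasome genes, all genes, and the genes at least as bright as the dimmest member or the dimmest standard core subunit. The proteasome curve is steeper than that of all genes, with an SD of 0.23 against 0.59. The genes at least as bright as the dimmest standard core subunit had 0.20, and the 14 standard core genes alone had 0.089.

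The standard 20S core had a narrower range than the 19S genes, the group of activators and inhibitor, or the assembly factors. Its 14 genes had log2 ratios from -0.16 to 0.17 with a median of 0.05, and none was near 1.5-fold. Without the inhibitor PSMF1 (0.65), the activators PSME1 to PSME4 had a narrower range than the core, from -0.13 to 0.06. In the alpha ring, which forms the gate, PSMA6 had the highest ratio, with a scaled signal of 25.8 on the DMSO array and 28.2 on the HTE array (log2 ratio 0.13). PSMA1 followed with 17.51 and 18.99 (0.12) and PSMA7 with 22.0 and 23.7 (0.11). PSMA5 was within the spot SD at 0.05. The remaining alpha subunits had lower signals after HTE, PSMA4 with 17.524 and 16.998 (-0.04) and PSMA3 with 14.2 and 13.4 (-0.09). PSMA2 was the lowest, with 16.9 and 15.2 (-0.16). No alpha subunit passed the spread of 0.16 between probes, while PSMA1, PSMA2, PSMA3, PSMA6 and PSMA7 passed that of 0.09 between bright probes.

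All 7 beta ring genes had a ratio above 0, although most by less than the spot SD. The structural subunit PSMB3 had the highest, with 33.4 on the DMSO array and 37.7 on the HTE array (log2 ratio 0.17). It was the brightest member, and genes of its level had a median ratio of 0.21. The other structural subunits were nearly equal on both arrays, PSMB1 with 18.1 and 18.4 (0.03), PSMB2 with 20.3 on both (0.0049) and PSMB4 with 13.2 and 13.6 (0.05). The subunits with the standard active sites were as close. PSMB5, which carries the chymotrypsin-like activity, had 25.2 and 26.4 (0.07). PSMB6, with the caspase-like activity, had 17.7 and 18.5 (0.06), and PSMB7, with the trypsin-like activity, had 15.6 on both (0.0012). The median of the beta ring, 0.05, turned to -0.03 with quantile normalization or scaling to the median and to -0.12 without scaling.

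The 3 immunoproteasome subunits were all lower on the HTE array, each by more than the spread of 0.16 between probes. That call was lost for PSMB8 with normexp background correction (-0.10) and for PSMB9 with the ratio of neighbouring spots subtracted (-0.15). PSMB10, the counterpart of PSMB7, had a scaled signal of 10.9 on the DMSO array and 8.74 on the HTE array (log2 ratio -0.31). PSMB9, the counterpart of PSMB6, had 9.86 and 8.08 (-0.29). PSMB8, the counterpart of PSMB5, had 1.88 and 1.61 (-0.23). Each immunoproteasome subunit thus had a lower ratio than the standard subunit it replaces. The difference of the log2 ratios was -0.35 for PSMB9 against PSMB6, -0.32 for PSMB10 against PSMB7 and -0.29 for PSMB8 against PSMB5. Each of these 6 genes was read by 1 probe. Of the genes of similar level, 8.09% had a lower ratio than PSMB10, 9.89% than PSMB9 and 32.4% than PSMB8. PSMB8 and PSMB9 sit in the MHC region of chromosome 6 in the order TAP2, PSMB8, PSMB8-AS1, TAP1, PSMB9. The neighbours TAP1 and TAP2 encode the transporter that carries the peptides into the endoplasmic reticulum. TAP1 had 4.48 and 4.94 (0.14), within the spread of 0.16 between probes, and TAP2 had 0.597 and 0.403 (-0.57). The sign of a ratio as small as that of TAP1 depends on the scaling, and a shared direction of this stretch was not tested.

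The interferon-induced activator subunits are close neighbours too, in the order PSME1, EMC9, PSME2 on chromosome 14. PSME1 and PSME2 form the PA28 ring that opens the core barrel. With this scaling PSME1 was equal on both arrays, at 17.1 and 17.2 (log2 ratio 0.01), and PSME2 had 13.998 and 12.791 (-0.13). PSME3, the nuclear PA28 form, had 1.72 and 1.80 (0.06), and PSME4, the activator PA200, had 2.83 and 2.88 (0.03). None of these passed the spread of 0.16 between probes, and PSME2 alone passed that of 0.09. PSMF1 encodes PI31, first described as an inhibitor of the core and also known as an adaptor for proteasome transport. It had the highest ratio of all members, with 2.72 on the DMSO array and 4.26 on the HTE array (0.65). Of the genes of its level, 93.9% had a lower ratio. Its 4 probes did not share a direction. The second brightest gave 0.57, while the others gave -0.22 and -0.17, and the mean over the probes was 0.21. With scaling to the median the brightest probe gave 0.57 and without scaling 0.48, both under 1.5-fold. All 4 probes are listed under the same transcript accession.

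The promoters of the members were searched for the letters of the interferon-stimulated response element (ISRE) core, which are the run GAAA repeated after any 2 bases, on both strands, in the 250 bases before and 50 after each gene start. RefSeq promoters on GRCh38.p14 were found for 40 of the 46 members, and none was matched for PSMA7, PSMB1, PSMB6, PSMB7, PSMD4 and PSMG3. The letters were present in 7 of the 49 promoters of these members (14.3%) and in 3.57% of all 35116 promoters. The 7 genes were PSMA4, PSMB4, PSMB8, PSMB10, PSME1, PSME2 and PSMG4, with a median log2 ratio of -0.13 and a range of -0.46 to 0.05, against a median of 0.05 over the 33 without the letters. In PSMB8 the match spans the gene start and in PSME1 it lies after it. The windows of 60 bases around the other matches are printed 5′ to 3′ on the strand of the gene, with the match in capitals, because they set PSMG4, the lowest of the alpha ring chaperones, beside an immunoproteasome subunit, an activator subunit and standard core subunits. A match is a description of letters, not of binding.
PSMB10, chr16:67936851-67936910, minus strand: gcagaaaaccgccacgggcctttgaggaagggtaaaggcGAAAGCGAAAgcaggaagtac
PSME2, chr14:24146611-24146670, minus strand: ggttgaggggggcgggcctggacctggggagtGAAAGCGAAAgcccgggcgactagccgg
PSMG4, chr6:3258887-3258946, plus strand: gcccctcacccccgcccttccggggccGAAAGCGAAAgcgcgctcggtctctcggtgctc
PSMA4, chr15:78540155-78540214, plus strand: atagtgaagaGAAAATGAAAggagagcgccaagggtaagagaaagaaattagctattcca
PSMB4, chr1:151399480-151399539, plus strand: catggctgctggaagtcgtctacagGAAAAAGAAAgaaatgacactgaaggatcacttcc

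PSMB10, PSME2 and PSMG4 share the same match, GAAAGCGAAA, while PSMA4 and PSMB4 have other letters at the free positions. The first 3 had log2 ratios of -0.31, -0.13 and -0.46, and the last pair -0.04 and 0.05. PSMB8 and PSME1, whose matches are not printed, had -0.23 and 0.01. A relation between the exact letters and the ratio was not tested. The letters of the gamma-activated site, TTCNNNGAA, another interferon-linked element, were in 7 member promoters (14.3%) and 7.66% of all promoters. The 7 genes were PSMA2, PSMB5, PSMB8, PSMC4, PSMD2, PSMD3 and PSME3, and they had a median ratio of 0.06, against 0.03 for the 33 without.

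In the 19S cap the ATPases had the highest median of all the role groups, 0.13, and all 6 had a ratio above 0, although without scaling the median was -0.04. PSMC5 stood apart, with a scaled signal of 3.47 on the DMSO array and 4.94 on the HTE array (log2 ratio 0.51), a 1.42-fold difference. Of the genes of its level, 93.7% had a lower ratio. PSMC5 was read by 1 probe, and it lay from 0.34 to 0.53 under the alternatives other than scaling to the spike-in probes, which put it at -0.58. PSMC2 had 8.79 and 10.1 (0.20), with 0.37 from a far dimmer second probe, and PSMC4 had 5.55 and 6.24 (0.17). These 3 passed the spread between probes. The other ATPases did not, with PSMC3 at 0.09, PSMC6 at 0.06 and PSMC1 at 0.0068. RefSeq names 13 pseudogenes after PSMC1, the most of any member, and binding of their RNA to its probes was not tested.

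The 11 other 19S genes had a median of 0.02 with no common direction. PSMD13, a subunit of the lid, had the highest ratio, with 3.44 on the DMSO array and 4.09 on the HTE array (log2 ratio 0.25), followed by the lid subunit PSMD8 with 14.91 and 16.99 (0.19). PSMD4, a ubiquitin receptor, had 14.3 and 15.3 (0.10), and the lid subunit PSMD3 had 3.80 and 4.06 (0.10). The lid subunit PSMD11 was the lowest, with 6.78 and 5.73 (-0.24). Thus with this scaling members of 1 subcomplex lay on both sides of 0 by more than the spread between probes. PSMD13, PSMD8 and PSMD11 were each read by 1 probe. Without scaling PSMD13 had 0.08 and PSMD8 had 0.02, both within that spread. The lid subunits with many spots had close repeats on the arrays, and with this scaling they were equal on both arrays. PSMD6 had a ratio of 0.0044 with an SD of 0.03 over 10 spots, and PSMD7, the partner of the deubiquitinase, had 0.02 with an SD of 0.04 over 9 spots. PSMD12 had -0.01.

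For 3 of the remaining 19S genes the value depended on the probe. PSMD14, the deubiquitinase that removes ubiquitin chains from substrates, had 13.4 and 12.2 with its brightest probe (-0.14) and 4.65 and 5.53 with the other (0.25). PSMD1, a large scaffold subunit of the base, had 0.06 and -0.11. PSMD2, the other scaffold, was lower with both probes, by a log2 ratio of -0.11 with the brighter and -0.49 with the dimmer. Of the 14 members with several probes, 5 had probes with ratios on opposite sides of 0, and in PSMD1, PSMD14 and PSMF1 each side lay beyond the spot SD.

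The assembly factors had the widest spread. Their 7 genes ran from -0.61 to 0.42 with a median of -0.29. PSMD5, PSMD9 and PSMD10 are chaperones that assist formation of the 19S base and do not stay in the finished particle. PSMD5 was the lowest of all members, with a scaled signal of 2.66 on the DMSO array and 1.75 on the HTE array (log2 ratio -0.61), and its second probe gave -0.61 as well. With normexp background correction it was -0.56, under 1.5-fold. PSMD10, also called gankyrin and known as an oncoprotein in liver cancer, had 2.24 and 2.99 (0.42), with 0.45 from its second probe. PSMD9 had 13.4 and 13.9 (0.05), with 0.30 from a second probe that was far dimmer. The base chaperones thus lay on both sides of 0, PSMD5 as the lowest member and PSMD10 as the highest after PSMF1 and PSMC5, and both probes of each gave nearly the same ratio.

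PSMG1 to PSMG4 act as pairs that assemble the alpha ring, PSMG1 with PSMG2 and PSMG3 with PSMG4. PSMG4 was the lowest of them, with 6.14 on the DMSO array and 4.46 on the HTE array (log2 ratio -0.46), and its second, dimmer probe gave -0.95. Its partner PSMG3 had 5.71 and 4.58 (-0.32). PSMG1 had 11.2 and 9.17 (-0.29), whereas its partner PSMG2 had 5.88 and 6.01 (0.03). Of these chaperones 3 were lower on the HTE array by more than the spread between probes, while the alpha subunits they assemble had a median of 0.05. Of the genes of similar level, 8.24% had a lower ratio than PSMD5, 8.60% than PSMG4, 9.96% than PSMG1 and 17.1% than PSMG3, so ratios of this size were not rare at these levels.

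**Figure D3:**
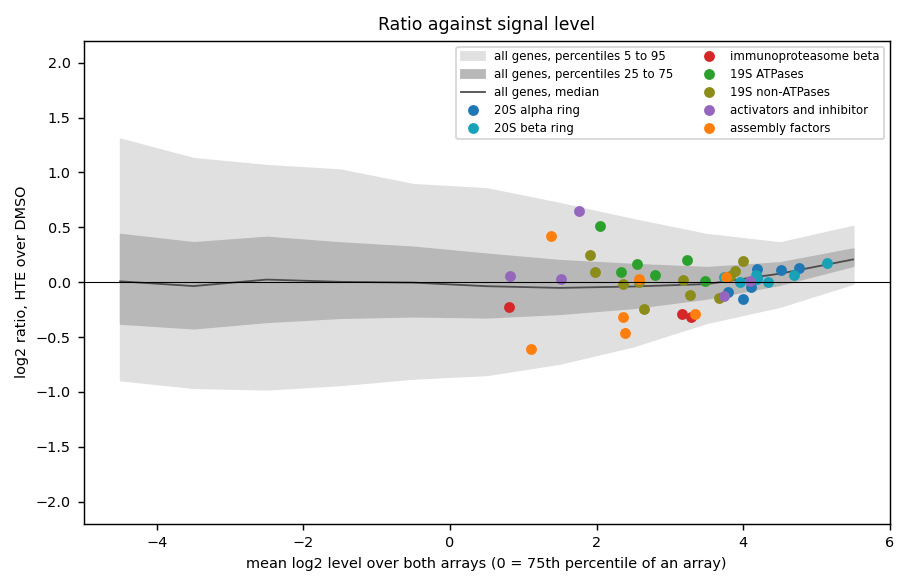
Log2 ratio of HTE over DMSO (y axis) against the mean log2 scaled signal of both arrays (x axis) for the 46 proteasome genes, with shading for the spread and a line for the median of all genes at each level. All 46 lie between the 5th and 95th percentiles of the genes of their level, with PSMF1 and PSMC5 near the upper bound.

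NFE2L1 acts at the antioxidant response element, whose core letters are TGACNNNGC. On both strands these letters were in 15 of the 49 member promoters (30.6%) and in 13.3% of all promoters. The 15 genes with the letters had a median log2 ratio of 0.03, with a range of -0.61 to 0.51, and the 25 without had a median of 0.05. Windows are printed for the genes at the ends of that range, PSMC5 and PSMD5, and for PSMA4, a core subunit near 0, in the same form as above.
PSMC5, chr17:63827639-63827698, plus strand: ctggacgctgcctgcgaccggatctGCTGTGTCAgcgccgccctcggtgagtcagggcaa
PSMD5, chr9:120843022-120843081, minus strand: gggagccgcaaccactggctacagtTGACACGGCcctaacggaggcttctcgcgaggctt
PSMA4, chr15:78540635-78540694, plus strand: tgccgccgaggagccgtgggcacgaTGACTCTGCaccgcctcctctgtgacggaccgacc

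In PSMC5 the match reads on the opposite strand. The letters were thus present in genes with a positive, a negative and a small ratio alike.

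The other genes of the pathway were taken from lists by role. In the list of NFE2L1 and the factors that process or pair with it, 13 of 14 genes were measured, with 9 above 0 and a median log2 ratio of 0.03. NFE2L1 itself had a scaled signal of 6.08 on the DMSO array and 6.32 on the HTE array (log2 ratio 0.06). At least 1.5-fold higher were 3 of them, all small MAF proteins, the DNA-binding partners of NFE2L1 and NFE2L2. MAFF had 0.633 and 1.63 (1.36), MAFK 0.646 and 0.991 (0.62) and MAFG 1.23 and 1.87 (0.61). Over all genes 45.7% had a ratio above 0, 12.4% were at least 1.5-fold higher and 10.5% at least 1.5-fold lower. The 95th percentile of the genes of similar level was 0.85 for MAFF and MAFG and 0.89 for MAFK, and MAFF alone lay above it. None was 1.5-fold lower, and the lowest was OGT, which glycosylates proteins, at -0.20. The protease DDI2, which cleaves NFE2L1 into its active form, was above background on neither array. The small MAF partners were thus higher on the HTE array under the settings run, except for MAFK (-0.47) and MAFG (-0.48) under spike-in scaling, beside proteasome genes with a median of 0.03. Without scaling, with scaling to the median or with neighbouring spots subtracted MAFK and MAFG were under 1.5-fold, from 0.44 to 0.57, as was MAFK with normexp at 0.51.

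Of the proteasome-associated factors, 14 of 16 were measured, with 8 above 0 and a median of 0.04. POMP, which guides maturation of the beta ring, had 1.44 and 1.62 (log2 ratio 0.17). UCHL5, a deubiquitinase bound to the 19S cap, was the only one past 1.5-fold, with 4.61 and 2.86 (-0.69), and its second probe gave -0.50. The highest was ZFAND5, which stimulates the proteasome, at 0.26. The shares over all genes were 45.7% above 0, 12.4% at least 1.5-fold higher and 10.5% at least 1.5-fold lower. No probe was matched to ECPAS, and PSMA8, a core subunit of the testis, was not well above background. By the brightest probe of each gene, the ratio of UCHL5 was lower than that of any of the 46 members.

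The list of ubiquitin genes, activating enzymes and shuttle factors had 6 of 12 genes above 0 and a median of -0.0047. NUB1, which delivers NEDD8 and FAT10 conjugates to the proteasome, was at least 1.5-fold higher, with 1.18 and 1.79 (log2 ratio 0.61). The lowest was UBA6, an enzyme that activates ubiquitin and FAT10, at -0.57. Among all genes 45.7% lay above 0, 12.4% were at least 1.5-fold higher and 10.5% at least 1.5-fold lower. The ubiquitin gene UBB had 41.8 and 54.2 (0.38), and RPS27A, which encodes ubiquitin fused to a ribosomal protein, had -0.19.

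For MHC class I presentation, the pathway the immunoproteasome feeds, 10 of 17 genes were above 0 with a median of 0.14. None passed 1.5-fold. The highest was HLA-F at 0.37, although probes of HLA genes can bind each other's RNA, and the lowest was ERAP2, a peptidase that trims the peptides, at -0.57. Of the interferon-linked regulators, IRF1 had a log2 ratio of -0.08 and NLRC5 one of 0.31, both at a low signal. The presented chain B2M had 27.9 and 32.9 (0.24). The immunoproteasome subunits and the class I chains lay on opposite sides of 0 with this scaling, while without scaling the median of the class I list was -0.03.

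In the heat shock list, which covers the chaperones raised when misfolded protein accumulates, 4 of 12 genes were above 0 and the median was -0.08. SQSTM1, a receptor that brings ubiquitin-tagged protein to autophagy and a target of NFE2L2, was the only one past 1.5-fold, with 5.37 on the DMSO array and 11.1 on the HTE array (log2 ratio 1.05). The lowest was the co-chaperone BAG3 at -0.28. Of all genes, 45.7% were above 0, 12.4% at least 1.5-fold higher and 10.5% at least 1.5-fold lower. The inducible HSP70 genes HSPA1A and HSPA1B had 0.23 and 0.36.

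**Figure D4:**
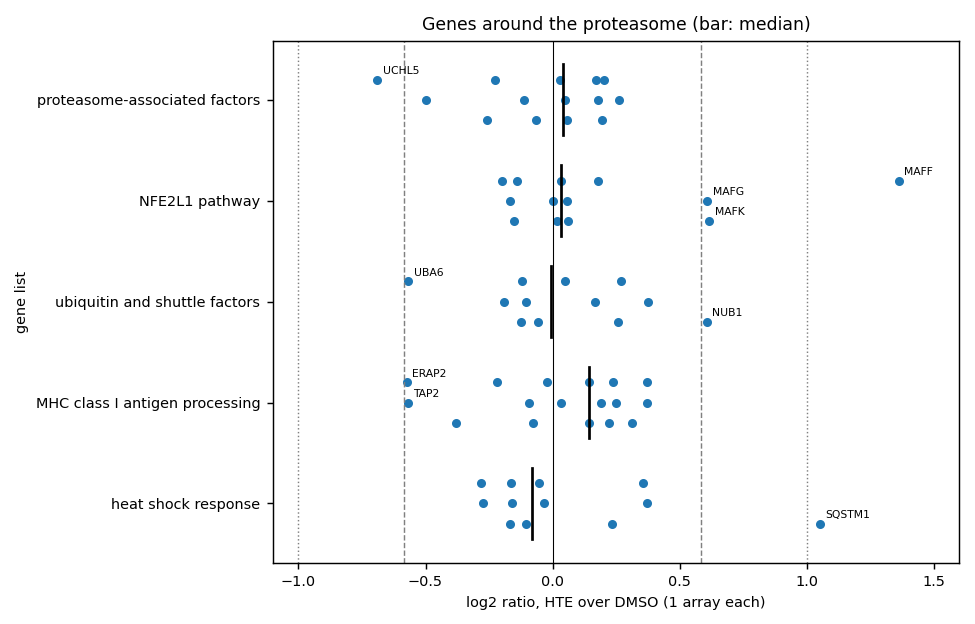
Log2 ratio of HTE over DMSO (x axis) for the genes of the 5 related lists (y axis), 1 point per gene from its brightest probe, with a bar at each median and dashed and dotted lines at 1.5-fold and 2-fold. The small MAF genes and SQSTM1 lie furthest to the right, with MAFF at 1.36 and SQSTM1 at 1.05, and UCHL5 lies furthest to the left at -0.69.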

How the data were processed

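The authors deposited the Agilent Feature Extraction output (version 11.5.1.1 in the file headers, 10.7 in the submitters' processing notes) of 1 DMSO and 1 HTE array, hybridised on the same slide. The intensity values used are the processed signals, which the authors' software had background-subtracted and detrended but not scaled between arrays. Control and outlier spots were left out, log2 was taken, and each array's 75th percentile was subtracted. Replicate spots were averaged, and 29681 probes stayed in, those with a share of 0.5 or more of their spots well above background on either array. RefSeq accessions were matched to the GRCh38.p14 gene table (28142 of 50532 probes matched), and a gene took its brightest probe. The arrays were designed on hg19, so no coordinates of probes are given.

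The members and lists were chosen with earlier results of these data known. Every member is named, and from each other list its largest rise, its largest fall, every gene at least 1.5-fold different, NFE2L1 and POMP. Genes named beyond this rule were chosen after their values were seen. With 1 array per group no test was made, and the number of arrays limits the precision. The alternatives were normexp background correction in limma (offset 50, planned on the mean and run on the median spot signal), other scalings (quantile, median, spike-in, none), other filters and other choices of probe. Subtraction of the local ratio of neighbouring spots was added after seeing the data. The software was limma 3.58.1 in R 4.3.3, and pandas 2.3.3, numpy 2.4.6 and matplotlib 3.10.9 in Python 3.11.15. The steps were tested on simulated data. Some genes of the related lists are not reported here.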

Additional observations from a re-analysis of the deposited data

How the results depend on the processing

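No paired analysis was possible because each group has 1 array. Over 18 results and 13 settings, 171 of 234 values moved by less than the spot SD, counts by less than 1.5 times, and 63 moved more. Changing the filters, keeping outlier spots or using only NM_ probes moved none. The median of all genes moved by -0.07 with median scaling, -0.16 without scaling and -1.07 with the spike-in probes. These scalings shift every member by the same constant, so they cannot change the order of the groups. In the order members, alpha ring, beta ring, immunoproteasome, ATPases, other 19S genes, activators and inhibitor, and assembly factors, the median log2 ratios were -0.050, -0.032, -0.031, -0.37, 0.048, -0.063, -0.052 and -0.37 with median scaling, -0.14, -0.12, -0.12, -0.46, -0.043, -0.15, -0.14 and -0.46 without scaling, and -1.05, -1.04, -1.03, -1.37, -0.96, -1.07, -1.06 and -1.37 with spike-in scaling. In the order proteasome-associated, NFE2L1, ubiquitin, MHC class I and heat shock lists, they were -0.040, -0.046, -0.085, 0.061 and -0.16, then -0.13, -0.14, -0.18, -0.030 and -0.25, then -1.04, -1.05, -1.09, -0.94 and -1.16. The number of members above 0 was 14, 7 and 0, respectively.

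With spike-in scaling 44 members were at least 1.5-fold and 32 at least 2-fold lower, and PSMF1 turned to -0.44. The count at least 1.5-fold higher was 0 with median scaling, no scaling, spike-in scaling, the mean over probes, the second brightest probe or neighbouring spots subtracted. The count at least 1.5-fold lower was 2 without scaling, with the mean over probes and with the second probe, and 0 with normexp. Quantile normalization gave -0.029 for the beta ring, 0.083 for MHC class I and -0.16 for heat shock. Normexp gave -0.34 for the immunoproteasome and 0.082 for MHC class I, and subtraction of neighbours -0.059 for the activators and inhibitor. MHC class I was 0.016 with the mean over probes and 0.059 with the second probe, which gave 0.079 for the ubiquitin list. The cause of these moves was not tested.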
